A study of Mus musculus with 14 samples.

Results

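The chromatin of 4 genes of the oligodendrocyte lineage, Sox10, Olig2, Olig1 and Pdgfra, was described in peak lists of mouse neural stem cells that express a tagged histone H3.3. The members were the peaks of all 12 lists that overlapped 1 of 3 windows of the mm9 build: chr15:78975000-79005000 around Sox10, a 65 kb window on chromosome 16 that holds Olig2 and Olig1, and chr5:75535000-75600000 around Pdgfra. They numbered 288 of 557412 peaks, 99 of 206732 in the H3K4me3 lists and 189 of 350680 in the FLAG lists. No peak crossed a window edge. The Olig2-Olig1 window was split at its middle into a 32.5 kb Olig2 side and a 32.5 kb Olig1 side. No mm9 annotation was at hand, so a peak belongs to a gene here only by its window or side. The windows were chosen by a readout of the same lists, the widths of H3K4me3 peaks in the 2 genotypes, in which the peaks at Sox10 were among those that differed. Genotype comparisons at these genes are therefore a description, and no test is given for them.

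The study profiled 6 neurosphere cultures of mouse hindbrain at e15.5 (embryonic day), grown in conditions for neural precursors, with 1 FLAG and 1 H3K4me3 ChIP-seq library each. In 3 cultures the genotype was Nestin-cre; H3f3aLSL-K27M-Tag/+ and in 3 it was Nestin-cre; H3f3aLSL-WT-Tag/+. All 6 cultures thus carried the Nestin-cre transgene, which acts in neural progenitors, and 1 tagged H3f3a allele beside an untagged one, so the tagged protein was never the only H3.3. The tagged H3.3 had methionine in place of lysine at residue 27 in the K27M-Tag cultures and was otherwise unmutated in the WT-Tag cultures. An untagged culture, which would give the background of the FLAG antibody, was not analysed here. Of the cultures, 5 were female and WT-Tag replicate 3 was male. Peak lists hold no RNA, so the cell type named in the labels was not checked against expression.

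Oligodendrocytes, the myelin-forming cells of the central nervous system, arise from neural stem cells through oligodendrocyte precursors. Olig2 and Olig1 are neighbouring genes for basic helix-loop-helix transcription factors; Olig2 specifies precursors and motor neurons, and Olig1 acts in later maturation. Sox10, an SRY-box factor, is switched on in committed precursors and drives myelin genes. Pdgfra is the receptor for platelet-derived growth factor A, the main mitogen of these precursors, and is altered in many diffuse midline gliomas, the tumours that carry the H3.3 K27M mutation. Trimethylation of histone H3 at lysine 4 (H3K4me3) marks promoters, and wide H3K4me3 domains often cover genes of developmental regulators. H3.3 is the histone H3 variant laid down outside DNA replication, much of it at promoters and enhancers, and the FLAG antibody recovers the tagged form.

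The promoters of Olig2 and Pdgfra are shown because sequences were found for these 2 of the 4 genes. Each sequence holds 300 bases, 250 before and 50 after the gene's start, from RefSeq on build GRCm38.p6, which is not the build of the peaks. Capitals mark CG dinucleotides. The Olig2 promoter lies at chr16:91225300-91225599 (+) and the Pdgfra promoter at chr5:75152001-75152300 (+). No promoter sequence was found for Sox10 or Olig1.
Olig2: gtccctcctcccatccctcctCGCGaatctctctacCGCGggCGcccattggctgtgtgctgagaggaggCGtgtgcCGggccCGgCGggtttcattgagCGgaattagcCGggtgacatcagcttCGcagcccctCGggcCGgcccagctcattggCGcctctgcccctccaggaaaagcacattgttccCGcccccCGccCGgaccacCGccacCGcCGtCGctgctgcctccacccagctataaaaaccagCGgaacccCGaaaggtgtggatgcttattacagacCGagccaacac
Pdgfra: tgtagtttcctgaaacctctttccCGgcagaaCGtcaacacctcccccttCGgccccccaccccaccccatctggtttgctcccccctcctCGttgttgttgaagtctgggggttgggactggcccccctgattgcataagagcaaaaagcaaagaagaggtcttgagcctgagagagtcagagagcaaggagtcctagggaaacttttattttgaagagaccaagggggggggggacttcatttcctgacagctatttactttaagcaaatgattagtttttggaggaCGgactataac
The Olig2 promoter held 25 CG dinucleotides at 65% GC, and 81.6% of the 32851 mouse promoters of the same length held fewer. The Pdgfra promoter held 5 at 51% GC, and 38.0% of promoters held fewer; the median over all promoters was 7 CG dinucleotides and 52.7% GC. The letters TATAAA, searched on both strands, were present in the Olig2 promoter and not in these bases of Pdgfra; 13.6% of all promoters held them.

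Across all peaks the lists of the 2 genotypes differed in length and in background. H3K4me3 lists held 35366 to 38720 peaks in K27M-Tag cultures and 31932 to 32504 in WT-Tag cultures, and FLAG lists held 57589 to 88285 and 32763 to 47293. Genome-wide background coverage, recovered from the deposited fold and p of each peak, was 2.77 to 3.60 fragments deep in all 12 lists. The local background around a peak was over 1.5 times that value for 8.68% to 10.8% of H3K4me3 peaks in K27M-Tag lists and for 32.9% to 33.4% in WT-Tag lists. The number and width of called peaks move with depth and with this background, and their part in the results at the 4 genes was not tested.

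Sox10 had the lowest H3K4me3 of the 4 genes and the widest relative gap in H3K4me3 width between genotypes. Its H3K4me3 peaks merged into 1 region, chr15:78991257-78994841. They covered 256, 410 and 559 bp in K27M-Tag replicates 1, 2 and 3, and 3462, 2588 and 2121 bp in the WT-Tag replicates. All 3 K27M-Tag lists lay below all 3 WT-Tag lists, with means of 408 ± 152 bp (SD, n = 3) and 2724 ± 681 bp (SD, n = 3), a log2 ratio of -2.74. Of all 30 kb tiles with an H3K4me3 peak, 1.51% had every WT-Tag list above every K27M-Tag list and 38.2% the reverse; the median log2 ratio of tiles covered in both genotypes was 0.20. With 3 lists against 3, a two-sided exact permutation test cannot go below p = 0.1, and none was run because the comparison chose the gene.

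The K27M-Tag peaks at Sox10 sat inside the stretch covered in WT-Tag lists, towards its upper end. They ran from 78993765 to 78994020 in K27M-Tag replicate 1, from 78993826 to 78994359 in replicate 2 and from 78993732 to 78994389 in replicate 3. In the WT-Tag lists the outermost bases were 78991298 and 78994841, 78991535 and 78994797, and 78991257 and 78994402. The K27M-Tag lists thus held no peak over the lower part of the region. The K27M-Tag lists held 1, 2 and 2 peaks there. In the WT-Tag lists 2, 5 and 5 peaks were called, with gaps between them.

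Sox10 peaks were also lower in the K27M-Tag lists. Summit pileup, the number of fragments over the highest base, was 8.11, 6.14 and 6.0 times the background coverage in K27M-Tag lists and 18.0, 12.1 and 13.6 times in WT-Tag lists. The means were 6.75 ± 1.18 (SD, n = 3) and 14.5 ± 3.08 (SD, n = 3), and the ranges did not overlap. Among H3K4me3 regions found in all 6 lists, 1.02% had this order of pileup and 33.7% the opposite one. The deposited fold sets the pileup against the local background. At the same highest summits it was 5.16, 3.18 and 3.73 in K27M-Tag lists and 8.71, 4.90 and 5.54 in WT-Tag lists, and these ranges overlapped. Taken as the highest fold of any peak in the region, whatever its pileup, it was 3.71 in K27M-Tag replicate 2 and 5.85 in WT-Tag replicate 2, both at lower summits, and the ranges then did not overlap; 1.08% of regions had this order of highest fold and 61.5% the reverse. The separation in fold at Sox10 thus depended on which peak was read. The local background at the highest summit was 1.33, 1.68 and 1.40 times the genome-wide one in K27M-Tag lists and 1.76, 2.19 and 2.2 times in WT-Tag lists. A higher local background thus stood beside the higher WT-Tag peaks; 49.2% of regions had a higher local background in every WT-Tag list and 21.3% in every K27M-Tag list.

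All Sox10 H3K4me3 peaks ranked in the lower part of their lists. The highest-scoring Sox10 peak stood at the 28.5, 3.34 and 12.4 percentile of peaks by deposited score in the K27M-Tag lists and at the 49.8, 31.9 and 37.2 percentile in the WT-Tag lists. When only the 50% of peaks with the highest score were kept, Sox10 had no H3K4me3 peak in any list.

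FLAG peaks in the Sox10 window did not separate the genotypes. They covered 3212, 742 and 1581 bp in K27M-Tag lists and 1778, 1375 and 2262 bp in WT-Tag lists. The means were 1845 ± 1256 bp and 1805 ± 444 bp (SD, n = 3 each), and the widest and the narrowest list were both K27M-Tag. The difference of 40 bp was 592 bp without K27M-Tag replicate 2 and -644 bp without K27M-Tag replicate 1. Across all 30 kb tiles with a FLAG peak, 45.4% had every K27M-Tag list above every WT-Tag list and 1.21% the reverse.

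The FLAG peaks at Sox10 fell into 7 regions, and 1 of them, chr15:78977197-78978601, was present in all 6 lists. It covered 1007, 312 and 290 bp in K27M-Tag lists and 796, 722 and 772 bp in WT-Tag lists, so replicate 1 of K27M-Tag stood above and the other two below every WT-Tag list. The second region by covered bases, chr15:78984312-78984979, was found in 5 lists: it covered 570, 430 and 0 bp in K27M-Tag lists and 540, 417 and 409 bp in WT-Tag lists. None of the FLAG peaks lay on the H3K4me3 region. The shortest distance between a FLAG and an H3K4me3 peak of the same culture was 5.10 to 9.03 kb, and the bases shared were 0 in all 6 cultures.

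**Figure D1:**
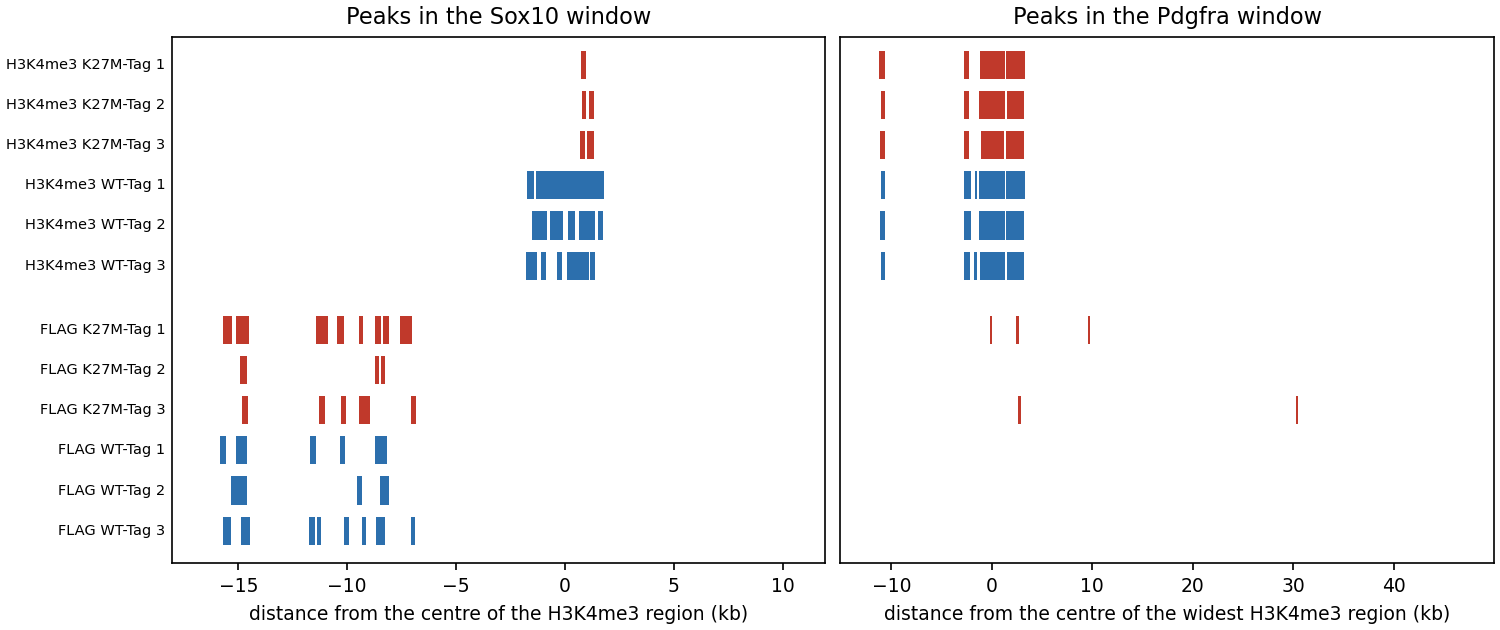
Peaks of the 12 lists in the Sox10 window (left) and the Pdgfra window (right), 1 line per list, K27M-Tag in red and WT-Tag in blue; the x axis is the distance in kb from the centre of the H3K4me3 region at Sox10 or of the widest H3K4me3 region at Pdgfra. At Sox10 the H3K4me3 peaks of K27M-Tag lists (256 to 559 bp) sit inside the WT-Tag stretch and FLAG peaks lie only to its left; at Pdgfra the H3K4me3 peaks have similar extents in all 6 lists and FLAG peaks appear in 2 lists.

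Olig2 carried the widest H3K4me3 domain of the 4 genes. Its peaks merged into 1 region, chr16:91221313-91233685, 12373 bp long. They covered 11143, 10245 and 10896 bp in K27M-Tag lists and 11923, 11578 and 11690 bp in WT-Tag lists. The means were 10761 ± 464 bp and 11730 ± 176 bp (SD, n = 3 each), and every WT-Tag list was above every K27M-Tag list. Of 32.5 kb tiles with an H3K4me3 peak, 1.43% had that order and 38.6% the reverse. The single widest peak of the domain was 10742, 9375 and 9201 bp in K27M-Tag lists and 9122, 9030 and 9011 bp in WT-Tag lists. By this measure every K27M-Tag list was above every WT-Tag list, the reverse of the order of covered bases. The share of tiles with this order of widest peak was not computed. The widest peak ranked 23, 28 and 26 by width among all peaks of the K27M-Tag lists and 16, 22 and 18 in the WT-Tag lists. Olig2 was thus among the widest H3K4me3 peaks of every list.

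The genotypes differed at the upper end of the Olig2 domain. The last covered base was 91232847, 91232335 and 91232832 in K27M-Tag lists and 91233629, 91233435 and 91233685 in WT-Tag lists. The first covered base was 91221620, 91221450 and 91221622 in K27M-Tag lists and 91221313, 91221779 and 91221808 in WT-Tag lists. The upper end was thus farther out in every WT-Tag list, while the lower ends were mixed. The difference on the Olig2 side, -969 bp (K27M-Tag minus WT-Tag) with all peaks, was 718 bp with only the 50% highest-scoring peaks.

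Height at Olig2 depended on the scale. The deposited fold was 47.5, 47.9 and 38.6 in K27M-Tag lists and 19.9, 26.2 and 33.6 in WT-Tag lists, without overlap, an order seen in 61.5% of the regions found in all 6 lists. Summit pileup over background coverage was 102, 104 and 81.1 in K27M-Tag lists and 67.8, 89.0 and 76.5 in WT-Tag lists, and these ranges overlapped. The local background was 1.86, 1.82 and 1.82 in K27M-Tag lists and 3.08, 3.06 and 1.98 in WT-Tag lists, higher in every WT-Tag list. The gap in fold was therefore larger than the gap in pileup. A higher local background in every WT-Tag list was found in 49.2% of the regions in all 6 lists.

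FLAG covered more of the Olig2 side in K27M-Tag cultures. The covered bases were 12397, 11276 and 13191 in K27M-Tag lists and 5673, 10326 and 8913 in WT-Tag lists, with means of 12288 ± 962 bp and 8304 ± 2386 bp (SD, n = 3 each). Every K27M-Tag list was above every WT-Tag list, as in 46.1% of 32.5 kb tiles with a FLAG peak; 1.16% had the reverse order. The number of FLAG peaks was similar, 12 to 16 and 14 to 16, so the peaks of K27M-Tag lists were longer and not more numerous. Longer FLAG peaks were also found across all peaks. The median width was 382 to 390 bp in K27M-Tag lists and 266 to 310 bp in WT-Tag lists. With lists cut to equal numbers of peaks the difference of 3984 bp was 2085 bp.

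Of 14 FLAG regions on the Olig2 side, 4 were found in all 6 lists and the widest pair stood at the ends of the H3K4me3 domain. The lower one, chr16:91221372-91225594, covered 3904, 3894 and 4138 bp in K27M-Tag lists and 1368, 3109 and 1660 bp in WT-Tag lists. It was wider in every K27M-Tag list, as were 23.1% of all FLAG regions, against 1.05% wider in every WT-Tag list. The upper one, chr16:91230936-91235367, covered 4278, 3802 and 4243 bp in K27M-Tag lists and 2376, 3653 and 4019 bp in WT-Tag lists, with overlapping ranges. The upper end of the H3K4me3 domain lay inside this second region in all 6 lists. WT-Tag replicate 2 had its highest FLAG peak of the Olig2 side there, with a fold of 9.27 and a pileup 14.2 times the background, above 99.9% of its list by score; high FLAG peaks at Olig2 were thus present without the mutation.

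**Figure D2:**
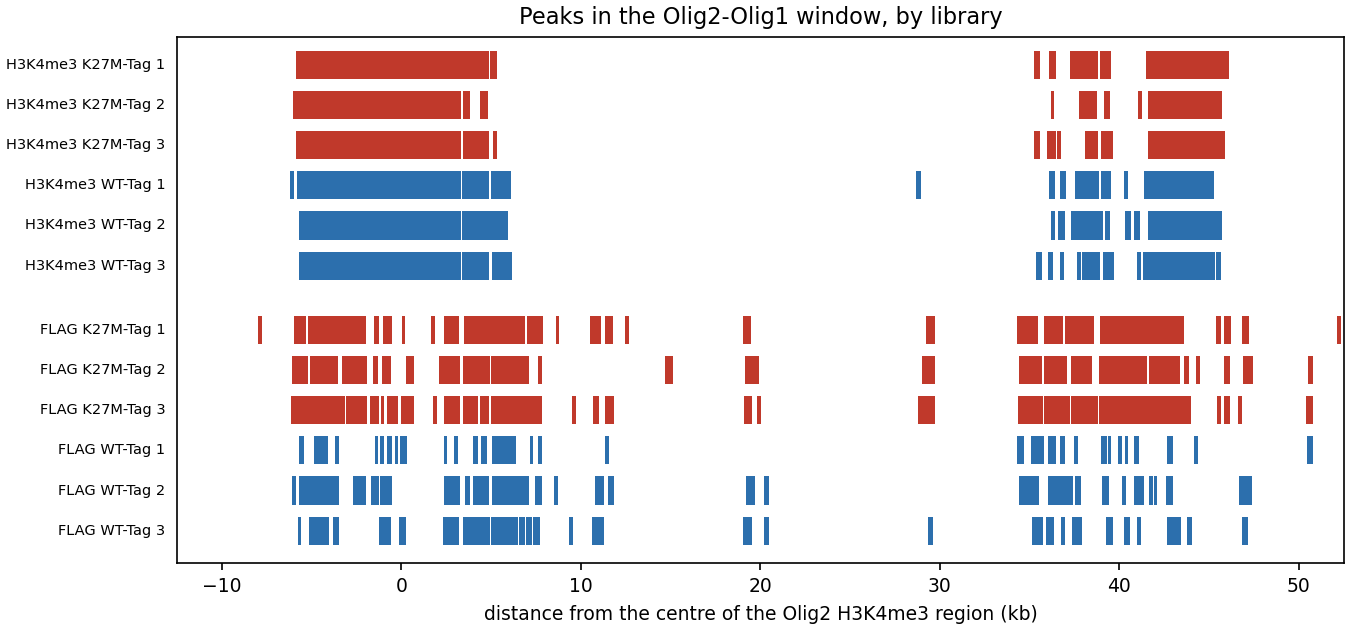
Peaks of the 12 lists in the Olig2-Olig1 window, 1 line per list, K27M-Tag in red and WT-Tag in blue; the x axis is the distance in kb from the centre of the Olig2 H3K4me3 region, with Olig1 peaks on the right. FLAG blocks of K27M-Tag lists are longer (21913 to 24714 bp in the window against 9832 to 16189 bp) at places that also hold FLAG peaks in WT-Tag lists.

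Olig1 had narrower H3K4me3 than Olig2 and the larger difference in FLAG of the 2 genes. Its H3K4me3 peaks covered 7625, 5863 and 6695 bp in K27M-Tag lists and 6942, 7364 and 7190 bp in WT-Tag lists. The means were 6728 ± 881 bp and 7165 ± 212 bp (SD, n = 3 each), and the ranges overlapped. The difference of -438 bp was -5.33 bp without K27M-Tag replicate 2 and -886 bp without K27M-Tag replicate 1. With only the 50% highest-scoring peaks it was 354 bp, and closing gaps of 1000 bp or less made it -1697 bp.

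The main Olig1 H3K4me3 region, chr16:91268830-91273632, covered 4672, 4114 and 4280 bp in K27M-Tag lists and 3911, 4108 and 4285 bp in WT-Tag lists. Its deposited fold was 66.3, 73.1 and 53.2 in K27M-Tag lists and 30.6, 42.3 and 40.4 in WT-Tag lists, without overlap. Its pileup over background was 90.1, 99.3 and 74.6 in K27M-Tag lists and 58.8, 83.1 and 78.1 in WT-Tag lists, and the ranges overlapped as at Olig2. The local background was 1.06, 1.00 and 1.12 in K27M-Tag lists and 1.59, 1.63 and 1.63 in WT-Tag lists. Of regions found in all 6 lists, 61.5% had the same order of fold and 49.2% the same order of local background. The second region, chr16:91264738-91267201, covered 2202, 1303 and 1405 bp in K27M-Tag lists and 1893, 2043 and 1810 bp in WT-Tag lists, with K27M-Tag replicate 1 the widest of the 6. The other 6 regions of the Olig1 side were short pieces, and 1 of them was in all 6 lists.

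FLAG peaks of the Olig1 side covered 10328, 10637 and 11523 bp in K27M-Tag lists and 4159, 5863 and 4658 bp in WT-Tag lists. The means were 10829 ± 620 bp and 4893 ± 876 bp (SD, n = 3 each), a ratio of 2.21, and the ranges did not overlap. This order was found in 46.1% of 32.5 kb tiles with a FLAG peak, where the median ratio of tiles covered in both genotypes was 2.62. The largest difference in bp between genotypes was in chr16:91266370-91271567, which spans the start of the main H3K4me3 region. It covered 4703, 4690 and 5103 bp in K27M-Tag lists and 1490, 2024 and 2051 bp in WT-Tag lists, a log2 ratio of 1.38. In the K27M-Tag lists it was called as 1, 3 and 1 peaks and in the WT-Tag lists as 6, 6 and 5, so the stretch was called as a few long peaks in one genotype and as short pieces in the other.

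This Olig1 region was also higher in the K27M-Tag lists. Its FLAG pileup was 10.8, 10.2 and 11.9 times the background in K27M-Tag lists and 6.80, 6.38 and 7.21 times in WT-Tag lists, without overlap, as in 42.2% of the FLAG regions found in all 6 lists; 3.92% had the reverse order. The highest deposited fold of any of its peaks was 8.38, 8.03 and 9.53 in K27M-Tag lists and 4.64, 4.64 and 5.01 in WT-Tag lists, also without overlap; 43.7% of regions had that order and 2.89% the reverse.

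The next FLAG region of the Olig1 side, chr16:91261772-91266301, covered 3872, 3837 and 4296 bp in K27M-Tag lists and 2174, 2847 and 1766 bp in WT-Tag lists, again wider in every K27M-Tag list. Of all FLAG regions, 23.1% were wider in every K27M-Tag list. A short region at the upper end of the main H3K4me3 region, chr16:91273326-91273731, held 402, 332 and 345 bp in K27M-Tag lists and no peak in the WT-Tag lists. It was the only region of either antibody in the 3 windows that was found in every list of one genotype and in none of the other; 9.89% of all FLAG regions were found in every K27M-Tag and no WT-Tag list and 0.585% the other way round, and for H3K4me3 these shares were 4.36% and 0.26%. A further region, chr16:91256293-91257226 between the 2 H3K4me3 domains, held 494, 703 and 933 bp in K27M-Tag lists and 0, 0 and 288 bp in WT-Tag lists. This region too was wider in every K27M-Tag list.

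Of the 35 FLAG regions in the 3 windows, 7 were found in all 6 lists, 5 were wider in every K27M-Tag list, 0 were wider in every WT-Tag list and 30 overlapped. The 5 were the lower Olig2 region and 4 regions of the Olig1 side, all named above. The share wider in every K27M-Tag list was 23.1% over all FLAG regions, and 1.05% were wider in every WT-Tag list.

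Over the whole Olig2-Olig1 window, FLAG and H3K4me3 differed in opposite directions. FLAG covered 22725, 21913 and 24714 bp in K27M-Tag lists and 9832, 16189 and 13571 bp in WT-Tag lists, with means of 23117 ± 1441 bp and 13197 ± 3195 bp (SD, n = 3 each) and a ratio of 1.75. The ranges did not overlap, as in 52.5% of 65 kb tiles with a FLAG peak (0.855% had the reverse order), where the median log2 ratio of tiles covered in both genotypes was 1.47 against 0.81 in this window. H3K4me3 covered 18768, 16108 and 17591 bp in K27M-Tag lists and 18865, 18942 and 18880 bp in WT-Tag lists, with every WT-Tag list higher. That order was found in 1.24% of 65 kb tiles with an H3K4me3 peak and the reverse in 42.9%. The means were 17489 ± 1333 bp and 18896 ± 40.8 bp (SD, n = 3 each). The difference of -1407 bp was -716 bp without K27M-Tag replicate 2, and it turned to 1072 bp with only the 50% highest-scoring peaks.

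**Figure D3:**
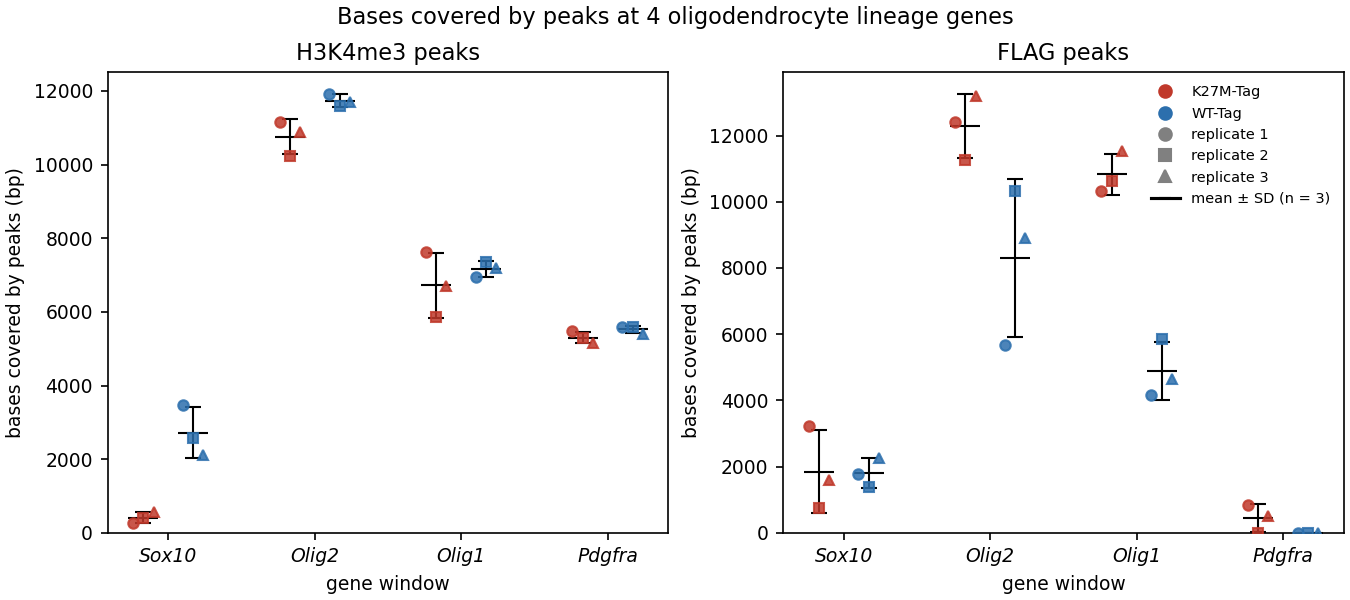
Bases covered by H3K4me3 peaks (left) and FLAG peaks (right) in each gene window or side of the Olig window, in bp; each point is 1 list, its shape gives the replicate, and bars are the mean ± SD of 3 lists. At Sox10 all K27M-Tag points for H3K4me3 (256 to 559 bp) lie under all WT-Tag points (2121 to 3462 bp), and at Olig1 all K27M-Tag points for FLAG (10328 to 11523 bp) lie over all WT-Tag points (4159 to 5863 bp).

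Pdgfra had H3K4me3 of nearly the same width in both genotypes and almost no FLAG. Its H3K4me3 peaks covered 5467, 5287 and 5149 bp in K27M-Tag lists and 5591, 5580 and 5405 bp in WT-Tag lists. The means were 5301 ± 159 bp and 5525 ± 104 bp (SD, n = 3 each), and the ranges overlapped. The difference of -224 bp was -148 bp without K27M-Tag replicate 3, 154 bp with only the 50% highest-scoring peaks and -622 bp once gaps of 1000 bp or less were closed.

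The Pdgfra peaks formed 5 regions, 4 of them in all 6 lists. The widest, chr5:75548777-75551368, covered 2491, 2565 and 2310 bp in K27M-Tag lists and 2514, 2575 and 2479 bp in WT-Tag lists. Its pileup was 13.2, 14.4 and 11.7 times the background in K27M-Tag lists and 13.5, 17.9 and 14.8 times in WT-Tag lists. Both ranges overlapped.

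The highest Pdgfra peak was in the adjacent region, chr5:75551459-75553362, which covered 1798, 1755 and 1844 bp in K27M-Tag lists and 1834, 1799 and 1692 bp in WT-Tag lists. Its pileup was 55.6, 58.1 and 50.6 times the background in K27M-Tag lists and 32.9, 43.8 and 44.1 times in WT-Tag lists. Its deposited fold was 41.9, 39.7 and 38.6 in K27M-Tag lists and 12.02, 17.4 and 17.7 in WT-Tag lists. Both were higher in every K27M-Tag list, with a log2 ratio of 1.35 for the fold and 0.44 for the pileup. The local background was 1.03, 1.11 and 1.03 in K27M-Tag lists and 2.42, 2.19 and 2.2 in WT-Tag lists, higher in every WT-Tag list. Over all H3K4me3 regions found in all 6 lists, 61.5% had this order of fold and 33.7% this order of pileup. A higher local background in every WT-Tag list was found in 49.2% of them.

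A short Pdgfra region on the lower side, chr5:75538861-75539491, had a pileup of 38.7, 37.2 and 34.0 times the background in K27M-Tag lists and 18.7, 28.3 and 24.4 times in WT-Tag lists, again the order of 33.7% of regions. It covered 631, 449 and 537 bp in K27M-Tag lists and 351, 509 and 367 bp in WT-Tag lists, and these ranges overlapped. Another Pdgfra region, chr5:75547255-75548003, had the opposite order of pileup, 9.01, 9.39 and 8.29 times the background in K27M-Tag lists and 10.4, 10.0 and 9.88 times in WT-Tag lists; 1.02% of regions had that order.

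Among the 4 genes, the non-overlap of H3K4me3 pileup went both ways. Pileup was higher in every WT-Tag list at Sox10 and at the low Pdgfra region chr5:75547255-75548003. At the highest Pdgfra peak and at chr5:75538861-75539491 of Pdgfra it was higher in every K27M-Tag list. At the main regions of Olig2 and Olig1 the ranges overlapped. Of the 15 H3K4me3 regions in the windows, 4 were wider in every WT-Tag list, 0 were wider in every K27M-Tag list and 11 overlapped; over all H3K4me3 regions, 1.6% and 29.3% had these orders. The 4 were the Sox10 region, the Olig2 region, a short Olig1 region and a short Pdgfra region. The short Olig1 region, chr16:91264026-91264521, covered 0, 0 and 212 bp in K27M-Tag lists and 354, 381 and 252 bp in WT-Tag lists. The short Pdgfra region, the one with the higher WT-Tag pileup, covered 547, 518 and 458 bp in K27M-Tag lists and 670, 697 and 574 bp in WT-Tag lists.

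**Figure D4:**
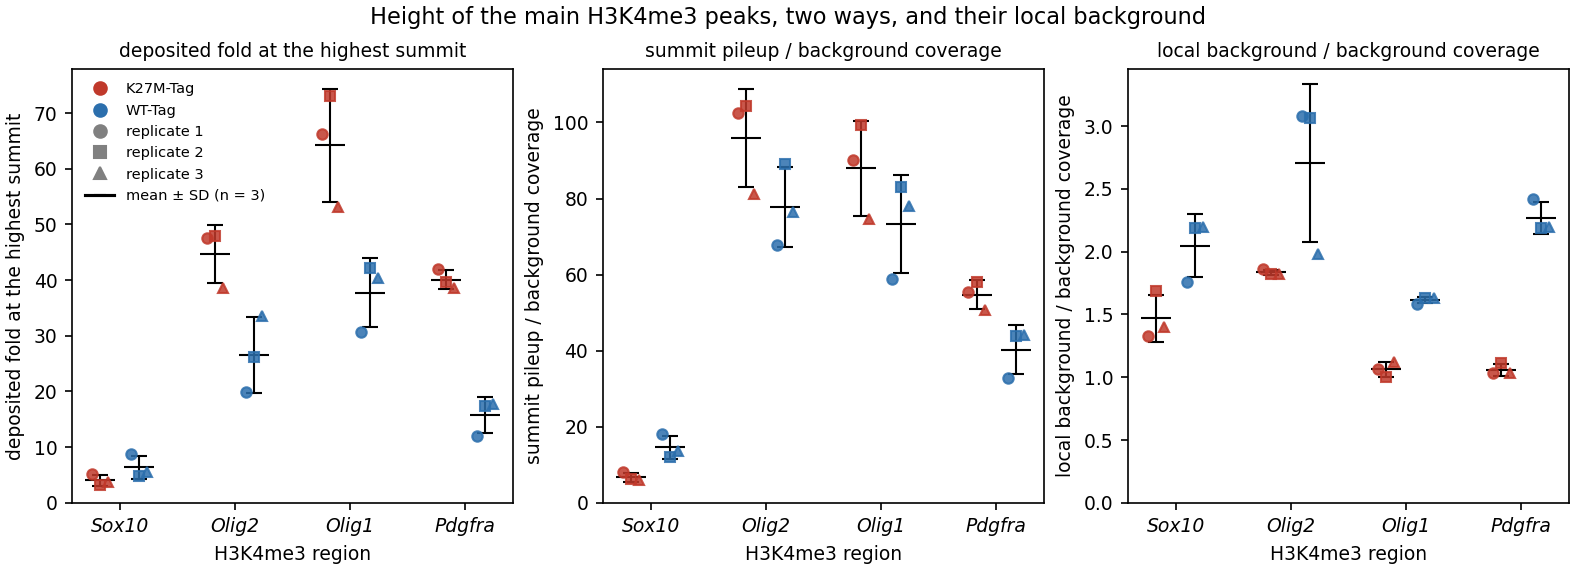
Height of the highest H3K4me3 region of each gene as the deposited fold at its highest summit (left) and as summit pileup over background coverage (middle), and local background over background coverage (right), all ratios; points are lists, shapes are replicates, and bars are the mean ± SD of 3 lists. At Pdgfra the fold separates the genotypes by more (38.6 to 41.9 against 12.02 to 17.7) than the pileup does (50.6 to 58.1 against 32.9 to 44.1), and the local background is higher in the WT-Tag lists.

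FLAG peaks in the Pdgfra window covered 836, 0 and 514 bp in K27M-Tag lists and 0 bp in each WT-Tag list. K27M-Tag replicates 1 and 3 held 3 and 2 short peaks, and replicate 2 held none, so the ranges met at 0. They fell into 4 regions, none found in all 3 K27M-Tag lists. The mean difference of 450 bp was 257 bp without K27M-Tag replicate 1 and 675 bp without replicate 2. It was 0 bp with only the 50% highest-scoring peaks or with lists cut to equal numbers of peaks. A list without a peak shows only that no place passed the limit of the list.

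The share of H3K4me3 bases that also lay in a FLAG peak of the same culture ordered the genes from Olig2 and Olig1 down to Pdgfra and Sox10. At Olig2 the share was 69.2%, 68.7% and 78.9% in K27M-Tag cultures and 39.8%, 60.6% and 52.1% in WT-Tag cultures. At Olig1 it was 69.3%, 64.4% and 75.0% in K27M-Tag cultures and 28.6%, 33.1% and 38.1% in WT-Tag cultures. In K27M-Tag cultures the means were 72.3% ± 5.72 at Olig2 and 69.6% ± 5.31 at Olig1 (SD, n = 3 each). Within these cultures the share was larger at Olig2 in replicates 2 and 3 and nearly equal in replicate 1. In WT-Tag cultures each replicate had a larger share at Olig2 than at Olig1.

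At Pdgfra the share was 10.4%, 0% and 5.87% in K27M-Tag cultures and 0% in the WT-Tag cultures, and at Sox10 it was 0% in all 6. Over all H3K4me3 peaks it was 30.1%, 22.8% and 33.7% in K27M-Tag cultures and 5.02%, 7.70% and 7.14% in WT-Tag cultures. Both Olig genes were above the whole list in every culture, and Sox10 was below it in every culture. Pdgfra was below it as well in all 6. These shares grow with the number of FLAG bases called, which was larger in K27M-Tag lists.

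Seen from the FLAG side, the order of the genotypes differed. In the Olig2-Olig1 window, 57.2%, 49.4% and 55.1% of FLAG bases lay on H3K4me3 in K27M-Tag cultures and 68.4%, 58.4% and 65.1% in WT-Tag cultures. Over the whole lists these shares were 30.2% to 30.5% in K27M-Tag cultures and 14.3% to 16.2% in WT-Tag cultures. FLAG bases of the window outside H3K4me3 came to 10640 ± 787 bp in K27M-Tag and 4860 ± 1819 bp in WT-Tag cultures (SD, n = 3 each). The longer K27M-Tag FLAG blocks at Olig2 and Olig1 thus extended both over H3K4me3 and beyond it. Outside H3K4me3 the log2 ratio of mean FLAG bases (K27M-Tag over WT-Tag) was 1.13 in the window and 1.07 over the whole lists. On H3K4me3 this log2 ratio was 0.58 in the window and 2.35 over the whole lists. Relative to the whole lists, the log2 ratio was therefore similar beyond H3K4me3 and smaller over it. The ratio over H3K4me3 had less room to grow in the window. In WT-Tag cultures FLAG already lay on a mean of 44.1% of H3K4me3 bases there, against 6.62% over the whole lists. No conclusion is drawn from the smaller ratio.

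**Figure D5:**
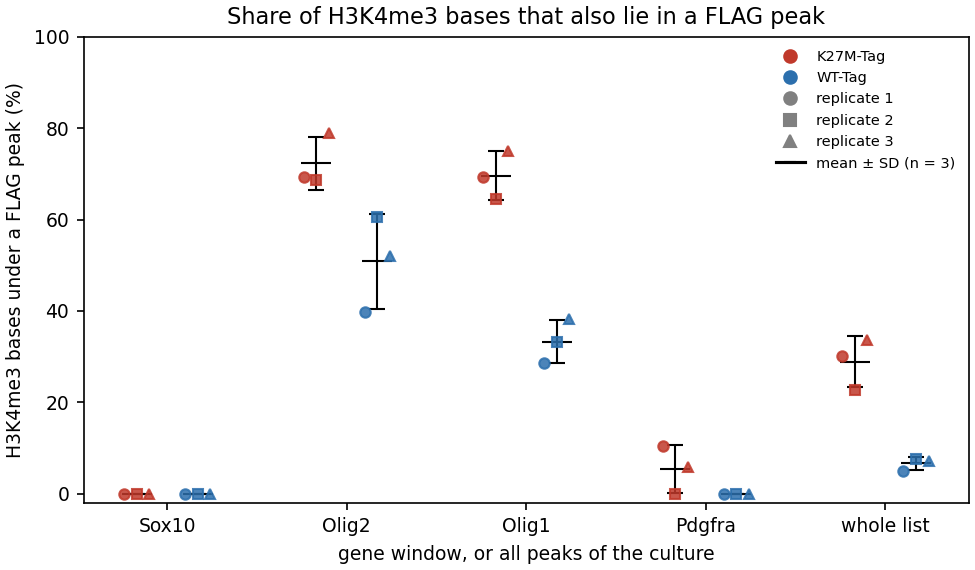
Share of H3K4me3 bases under a FLAG peak of the same culture, in percent, for each gene and for all peaks; points are cultures, shapes are replicates, and bars are the mean ± SD of 3 cultures. Olig2 and Olig1 lie above the whole list in both genotypes (64.4% to 78.9% in K27M-Tag cultures), while Sox10 is at 0% in all 6 cultures.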

How the data were processed

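FLAG and H3K4me3 ChIP-seq of 6 neurosphere cultures was analysed from 12 deposited narrowPeak lists, 1 per library, in mm9. BWA 0.7.17-r1188, MACS2 2.2.7.1 and bedtools 2.29.2 are named in the submitters' processing notes; their settings are not given in the sources used here. Each peak carries the authors' score, the authors' fold enrichment (a ratio at the summit), and the authors' −log10 p and −log10 q, all as deposited. The lowest deposited −log10 q was 2.00 to 2.05 in every list. Inputs, 1 composite per genotype, were not analysed here; if they served as controls, lists of a genotype share one. Drosophila chromatin was added before the H3K4me3 immunoprecipitation, per the labels' protocols, and the lists carry no spike-in factor, so no value is scaled by it. Read totals are not given in the sources used here.

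Covered bases were counted per list and window with Python 3.11.15, numpy 2.4.6, pandas 2.3.3 and scipy 1.17.1. Regions merged peaks of the 6 lists of an antibody that shared at least 1 bp. Summit pileup (a whole number) and local background were solved for every peak from 2 deposited values: the fold, read as (pileup + 1)/(background + 1), and p, read as an upper Poisson tail; all peaks matched within a relative error of 0.0001. Background coverage was the most common local background in a list. This rests on the values, not on a stated method, and was tested on simulated data. Scores only ranked or filtered peaks within a list.

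Named items were the 4 genes, the 2 regions per gene and antibody with most covered bases, and any region in all lists of 1 genotype and none of the other; other regions named were chosen after their values were seen. The members and lists were chosen with earlier results of these data known. Backgrounds were the same orders over all tiles of the window's length or all regions. Replicate numbers come from the experiment id; nothing in the labels says whether cultures came from separate embryos, so the spread may be partly technical. Other lineage genes were not used, for want of an mm9 annotation; RefSeq tables on GRCm38.p6 gave promoters and neighbour names only. Alternatives were stronger or equal-sized lists, a common p limit, whole peaks, joined peaks and leaving out each replicate.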

Additional observations from a re-analysis of the deposited data

How the results depend on the processing

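Values are K27M-Tag means minus WT-Tag means in bp. With the highest-scoring 50% of peaks the H3K4me3 differences became 0 at Sox10 (from -2315), 1072 at Olig2-Olig1 (from -1407), 718 on the Olig2 side (from -969) and 154 at Pdgfra (from -224), and FLAG at Pdgfra became 0 (from 450). When gaps of 1000 bp or less were closed, H3K4me3 became -2835 at Sox10, -2539 at Olig2-Olig1 and -622 at Pdgfra. With equal list sizes, FLAG became -1111 at Sox10 (from 40) and 0 at Pdgfra. The cause was not tested. FLAG at Olig2-Olig1 (9920) moved by less than the spread between replicates under every setting run. A common p limit changed no value. Whole peaks could change no value of the windows, because no peak crossed a window edge. On the Olig sides they made the FLAG difference 3999 (from 3984) at Olig2 and 5994 (from 5936) at Olig1. Neither setting is thus a check of stability.

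Leaving out each list in turn gave H3K4me3 differences of -2617 to -1946 at Sox10, -2046 to -716 at Olig2-Olig1 (the latter without K27M-Tag replicate 2) and -307 to -148 at Pdgfra. The FLAG differences ranged from -644 to 592 at Sox10, from 8237 to 11416 at Olig2-Olig1 and from 257 to 675 at Pdgfra. The direction was kept in 58 of 60 such values, which count the whole Olig2-Olig1 window and each of its sides. Under the other settings it was kept in 41 of 50 values. These 50 include the common p limit, which changed no value, and whole peaks, which changed only FLAG on the Olig2 and Olig1 sides. The count therefore overstates how far the settings probed the direction. No paired analysis was possible because the genotype comparisons come from no test in which a block could enter; FLAG and H3K4me3 were set side by side within each culture, as a description.

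Called widths depend on depth, control and limit, and no read totals or spike-in factors were used, so a short or missing peak is not a measured absence of signal.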

Other observations

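The stretches beside the windows, of the same length on each side, held 288 further peaks, which show how the windows' edges bear on the description. Just below the Sox10 window, where Polr2f is the next protein-coding gene in RefSeq's order on GRCm38.p6, an H3K4me3 region at chr15:78970525-78973256 covered 2696, 2553 and 2307 bp in K27M-Tag lists and 2612, 2465 and 2551 bp in WT-Tag lists. Its end was 1.74 kb from the window, and its genotype ranges overlapped, unlike those of the Sox10 region. Above the Sox10 window, where Pick1 is the next protein-coding gene, the order of the genotypes was the reverse of that at Sox10. H3K4me3 peaks of that flank covered 824, 550 and 1086 bp in K27M-Tag lists and 0 bp in each WT-Tag list. They included chr15:79023070-79023588, with 447, 304 and 496 bp in the K27M-Tag lists, and chr15:79023824-79024206, with 377, 246 and 366 bp. Of all 30 kb tiles with an H3K4me3 peak, 38.2% had every K27M-Tag list above every WT-Tag list, as this flank did. Over all H3K4me3 regions, 4.36% were found in every K27M-Tag and no WT-Tag list.

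Wider FLAG coverage in K27M-Tag lists also held beside the Olig2-Olig1 window. Below it, FLAG covered 11267, 9027 and 13136 bp in K27M-Tag lists and 4976, 6057 and 5471 bp in WT-Tag lists. Above it, towards Ifnar2, FLAG covered 12016, 9039 and 14051 bp in K27M-Tag lists and 3546, 5037 and 5121 bp in WT-Tag lists. In both flanks every K27M-Tag list was above every WT-Tag list, the order of 52.5% of 65 kb tiles with a FLAG peak. H3K4me3 in these flanks was wider in K27M-Tag lists, at 5878 ± 159 bp against 4838 ± 148 bp above the window (SD, n = 3 each), the opposite order to the window itself and that of 42.9% of 65 kb tiles with an H3K4me3 peak. Below the Pdgfra window, towards Gsx2, H3K4me3 covered 1527, 1254 and 2024 bp in K27M-Tag lists and 2991, 2756 and 3004 bp in WT-Tag lists, with every WT-Tag list higher, an order found in 1.24% of such tiles, while the ranges of the Pdgfra window itself overlapped. The flank above Pdgfra, towards Kit, held no peak of either antibody.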
